A study of Homo sapiens with 22 samples.

Results

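The regions described here are the stretches of open chromatin at the ends of protein-coding genes that were called as peaks in every library of an ATAC-seq series on 2 multiple myeloma cell lines, KMS11 and KMS34. ATAC-seq inserts sequencing adapters with the transposase Tn5 wherever DNA is accessible, and a peak is a stretch with more insertions than the local background. The 22 peak lists were merged over chromosomes 1 to 22 and X into 96160 union regions. Of these, 13884 held a called peak in all 22 libraries, and 8453 of those also overlapped the window of 1 kb either side of an end of a protein-coding gene (hg38, RefSeq). These 8453 regions, 8.79% of the union, are called always-open gene-end regions below. The 5431 always-open regions farther from gene ends, and all union regions, serve as comparison. The regions were chosen by the deposited peak calls, so their presence in every library is not a finding, and no region here can be one that closes completely in any group.

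Both lines come from bone marrow of multiple myeloma, a cancer of plasma cells, and the labels give the genotype t(4;14) for all but 2 libraries. That translocation places NSD2, which writes dimethylation of histone H3 lysine 36, under the immunoglobulin heavy chain enhancers. The 11 groups held 2 libraries each: untreated KMS11 and KMS34 at day 0, KMS11 of genotype TKO at day 0, and both lines in DMSO or in the NSD2 degrader NSD2LDD at day 4 and at day 10. Neither the meaning of TKO nor a concentration for NSD2LDD is stated by the labels. All treated and control cells of the KMS34 groups and of the KMS11 groups other than TKO carried the same t(4;14) genotype. The libraries of a group are numbered duplicates. No label ties them to separate cultures, and a p-value here may therefore reflect technical spread alone.

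Chromatin at active gene starts is typically kept free of nucleosomes just upstream of the start, where the transcription machinery assembles. Most such promoters in human cells lie in CpG islands, stretches rich in G, C and undepleted CpG, which hold binding motifs of broadly expressed factors such as SP/KLF, NFY, NRF1, ETS and YY1 proteins. Promoters of housekeeping genes tend to be open in most cell types, whereas tissue-specific genes more often lack a CpG island.

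Promoter sequences from RefSeq (GRCh38.p14, 250 bases before to 50 after a gene start) were matched by gene ID. The table gave a strand for 15811 of 19970 protein-coding genes, and for 14540 of these a listed start lay within 1 kb of the outer end of the gene. The windows printed here hold the 250 bases before the start, 5′ to 3′ on the gene's strand, and capitals mark matches to the 10 motifs described further on, on either strand. The first 3 belong to regions whose strongest summit was among those that moved least across the libraries. PLEKHM1 (chr17:45490722-45490971, minus strand), ENTPD7 (chr10:99659259-99659508, plus strand) and EEF2K (chr16:22206028-22206277, plus strand) read:
PLEKHM1: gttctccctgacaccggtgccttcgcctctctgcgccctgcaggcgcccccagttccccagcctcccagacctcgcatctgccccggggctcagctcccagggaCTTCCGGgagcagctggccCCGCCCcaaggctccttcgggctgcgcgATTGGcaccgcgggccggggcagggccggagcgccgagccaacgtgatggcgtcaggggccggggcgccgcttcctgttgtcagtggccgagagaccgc
ENTPD7: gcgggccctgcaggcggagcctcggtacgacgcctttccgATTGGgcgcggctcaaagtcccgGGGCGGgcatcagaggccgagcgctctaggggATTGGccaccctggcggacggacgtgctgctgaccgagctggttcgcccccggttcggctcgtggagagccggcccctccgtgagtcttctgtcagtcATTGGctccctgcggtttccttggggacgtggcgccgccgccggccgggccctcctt
EEF2K: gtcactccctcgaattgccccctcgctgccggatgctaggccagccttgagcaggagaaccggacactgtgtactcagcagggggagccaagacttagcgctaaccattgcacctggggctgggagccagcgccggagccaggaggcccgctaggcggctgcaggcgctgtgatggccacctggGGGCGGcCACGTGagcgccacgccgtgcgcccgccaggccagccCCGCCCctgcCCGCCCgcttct

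Of the 3 widest regions, HIVEP2 (chr6:142945734-142945983, minus strand) and TNK2 (chr3:195908552-195908801, minus strand) had an entry. WHRN (chr9:114505474-114505723, minus strand) and KLF15 (chr3:126357409-126357658, minus strand) were added after their values were seen, because WHRN was narrower and KLF15 wider in KMS34 than in KMS11. For contrast, the olfactory receptor gene OR10A2 (chr11:6862807-6863056, plus strand) had no region at its start in any library:
HIVEP2: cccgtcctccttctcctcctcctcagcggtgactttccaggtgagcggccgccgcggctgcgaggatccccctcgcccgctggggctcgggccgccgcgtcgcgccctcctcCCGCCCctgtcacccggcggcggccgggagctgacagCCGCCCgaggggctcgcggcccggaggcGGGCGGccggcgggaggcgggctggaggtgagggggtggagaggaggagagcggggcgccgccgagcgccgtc
TNK2: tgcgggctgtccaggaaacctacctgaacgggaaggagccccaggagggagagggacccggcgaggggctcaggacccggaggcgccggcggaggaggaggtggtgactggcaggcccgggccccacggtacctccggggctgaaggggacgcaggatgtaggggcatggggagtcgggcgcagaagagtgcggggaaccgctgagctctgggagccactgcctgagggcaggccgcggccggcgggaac
WHRN: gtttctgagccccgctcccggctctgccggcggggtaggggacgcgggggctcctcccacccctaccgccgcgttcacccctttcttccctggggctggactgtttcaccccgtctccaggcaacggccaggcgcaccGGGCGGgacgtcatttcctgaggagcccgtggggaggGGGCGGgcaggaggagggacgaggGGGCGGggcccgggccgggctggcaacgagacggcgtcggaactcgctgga
KLF15: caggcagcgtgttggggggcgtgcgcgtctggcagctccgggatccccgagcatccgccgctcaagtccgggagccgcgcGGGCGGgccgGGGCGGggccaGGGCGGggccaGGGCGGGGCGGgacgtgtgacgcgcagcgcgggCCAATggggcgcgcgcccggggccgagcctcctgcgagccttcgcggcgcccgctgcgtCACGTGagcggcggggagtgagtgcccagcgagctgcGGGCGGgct
OR10A2: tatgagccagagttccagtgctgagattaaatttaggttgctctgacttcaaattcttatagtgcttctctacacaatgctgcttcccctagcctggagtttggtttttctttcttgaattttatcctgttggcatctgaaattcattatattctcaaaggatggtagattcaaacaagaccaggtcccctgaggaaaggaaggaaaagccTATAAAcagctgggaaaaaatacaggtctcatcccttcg

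PLEKHM1, an adaptor of late endosomes and lysosomes, had 73.6% G and C and 24 CpG in its window, with an ETS match, a GC box and a CCAAT box. ENTPD7, an intracellular nucleotide hydrolase, had 29 CpG, 3 CCAAT boxes and a GC box. EEF2K, the kinase of translation elongation factor eEF2, had 20 CpG and 3 GC boxes beside an E box. HIVEP2, a zinc finger transcription factor, reached 80.0% G and C with 36 CpG and 3 GC boxes. TNK2, a non-receptor tyrosine kinase, held no match to any of the 10 motifs at 72.4% G and C. WHRN, a scaffold protein of hair cells and photoreceptors, had 26 CpG and 3 GC boxes. KLF15, a zinc finger transcription factor, had 40 CpG and 6 GC boxes, of which 2 overlap. The OR10A2 window had 40.4% G and C, 1 CpG and a TATA box.

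Median composition differed between these promoters and the others, though the classes overlapped. The 7720 promoters with a listed start at an always-open gene-end region had a median of 66.0% G and C, against 63.0% over all 14540 promoters and 54.0% over the 4526 with no region at the start in any library. The ratio of observed to expected CpG had a median of 0.867 at the always-open regions, 0.770 over all promoters and 0.313 where no region was called. A ratio above 0.6, often used to define CpG islands, was reached by 91.1%, 66.9% and 27.5% of them. The 2294 promoters at regions called in 1 to 21 libraries lay between, with a median ratio of 0.731 and 63.2% above 0.6. Their median G and C was 63.7% (quartiles 55 and 72), where the always-open regions had quartiles of 60 and 72. All 14540 promoters include the 7720 at always-open gene-end regions. These shares describe the promoters and were not tested, since the peak calls set the classes.

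Except for the CCAAT box, motif content moved with the same classes. The GC box GGGCGG, bound by SP and KLF factors, was found in 74.6% of promoters at always-open gene-end regions and in 59.1% of all 14540 promoters. The ETS motif CCGGAAG was present in 22.7% against 14.7%. The NRF1 motif GCATGCGC was present in 6.70% against 4.42%, the YY1 motif AAGATGGCG in 4.61% against 2.85%, and the palindrome TCTCGCGA, bound by ZBTB33 and BANP, in 2.95% against 1.78%. The E box CACGTG had 11.05% against 8.95%, and the cyclic AMP response element TGACGTCA 3.81% against 2.67%. The CCAAT box, bound by NFY, differed less, at 39.2% against 36.7%. It was present in 30.3% of promoters at regions called in 1 to 21 libraries and in 35.8% of those with no region at the start. Both remaining motifs were rarer: the TATA box TATAAA stood in 4.87% against 9.77%, and the AP-1 motif TGANTCA in 3.29% against 5.67%. Among promoters with no region at the start, 18.9% held TATAAA and 3.27% held CCGGAAG. Both strands were searched in the 300 bases, none of these motifs contains another, and matches of different motifs may overlap. A match describes letters in the window and is not a measured binding site.

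Motifs differed in where their matches lay. In promoters at always-open gene-end regions the first base of CCGGAAG matches lay at a median of -46 bp from the start (quartiles -109 and -12). That of GGGCGG lay at -81 bp (quartiles -145 and -38) and that of CCAAT at -97 bp (quartiles -161 and -60). The window holds 250 bases before the start and 50 after, so evenly spread matches would also have a median before the start. The medians of GGGCGG and CCAAT alone therefore show no preferred place. Matches of AAGATGGCG had a median of 12 bp after the start. The ETS motif also varied with width. With the promoters ordered by covered length and cut into 4 sets, it was present in 27.9% of the set with the narrowest regions and in 15.3% of that with the widest, whereas GGGCGG was present in 72.1% and 76.3%. Regions with CCGGAAG in the promoter had a median covered length of 870.5 bp, against 954 bp without it.

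The covered length of a region in a library is the number of its bases inside called peaks. Each region's median over the 22 libraries ranged from 276.5 to 2898.5 bp, with a median of 921 bp (quartiles 743 and 1161), and always-open regions away from gene ends had a median of 687 bp. Union regions were 367 to 4751 bp wide (median 1330), against 1089 bp for those away from gene ends. The widest call of a region was a median of 2.28 times its narrowest across libraries (quartiles 1.80 and 3.12, highest 18.9), against 2.74 times away from gene ends. Always-open gene-end regions were thus longer and varied less in relative length, in a comparison that takes both sets from the same lists.

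The 5 widest regions were at PRR36, HIVEP2, TNK2, TSC22D2 and VIM. The region at PRR36, a proline-rich protein, covered 1490 to 3552 bp (median 2898.5). That at HIVEP2 covered 1788 to 3611 bp (median 2774.5) and that at TNK2 1392 to 3148 bp (median 2702). TSC22D2, a leucine zipper protein, had 1269 to 3236 bp (median 2679), and VIM, the intermediate filament vimentin, 1629 to 2790 bp (median 2651.5). The HIVEP2 and PRR36 regions were mostly split, with means of 2.55 peaks per library each, whereas VIM was a single peak in 20 of 22 libraries. At the other end, the region at ALKBH2, a DNA repair dioxygenase, covered 163 to 846 bp (median 276.5). DEPDC1B had a median of 292 bp, LOC102724159/LOC102724200 of 293 bp, the kinesin KIF21B of 293.5 bp and the zinc finger gene ZSCAN10 of 298.5 bp. Each of these 5 was a single peak in all 22 libraries.

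Each deposited peak had a single summit, so the number of summits in a region equals its number of peaks. A single peak was called in every library at 6085 regions (72.0%), against 76.6% away from gene ends. At most 5 peaks were called in a region, and 337 regions held 2 or more peaks in at least 11 of the libraries. Per library, 90.0% to 98.0% of the regions were a single peak. The strongest summit, that with the highest -log10 q, lay a median of 29.5 bp from the region's own 22-library median position (quartiles 14 and 48), against 26.5 bp away from gene ends. Its range over the 22 libraries was at most 100 bp in 592 regions (7.003%, against 10.8% away from gene ends) and over 500 bp in 1400 regions (16.6%). Among the least variable were PLEKHM1 with a range of 4 bp, SLC25A28/ENTPD7 with 26 bp, EEF2K with 40 bp and PRDM9, the histone methyltransferase of meiotic recombination sites, with 42 bp.

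Summits stood just upstream of gene starts. In the 6767 regions with a listed start, the median summit lay at -48.5 bp from the nearest listed start (quartiles -114.5 and 20), upstream in 69.0% and within 200 bp in 77.2%. The median was -51 bp over the 12 KMS11 libraries and -44.5 bp over the 10 KMS34 libraries. Over the 11 groups it ranged from -55 bp in KMS11 TKO at day 0 to -37.5 bp in KMS34 at day 0, and every group's quartiles enclosed every other group's median. The summits of PLEKHM1 at -75 bp and EEF2K at 6 bp fall inside or beside the sequences printed above, while the strongest summits of HIVEP2 and TNK2 lay farther upstream, at -732 and -1176.5 bp.

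**Figure D1:**
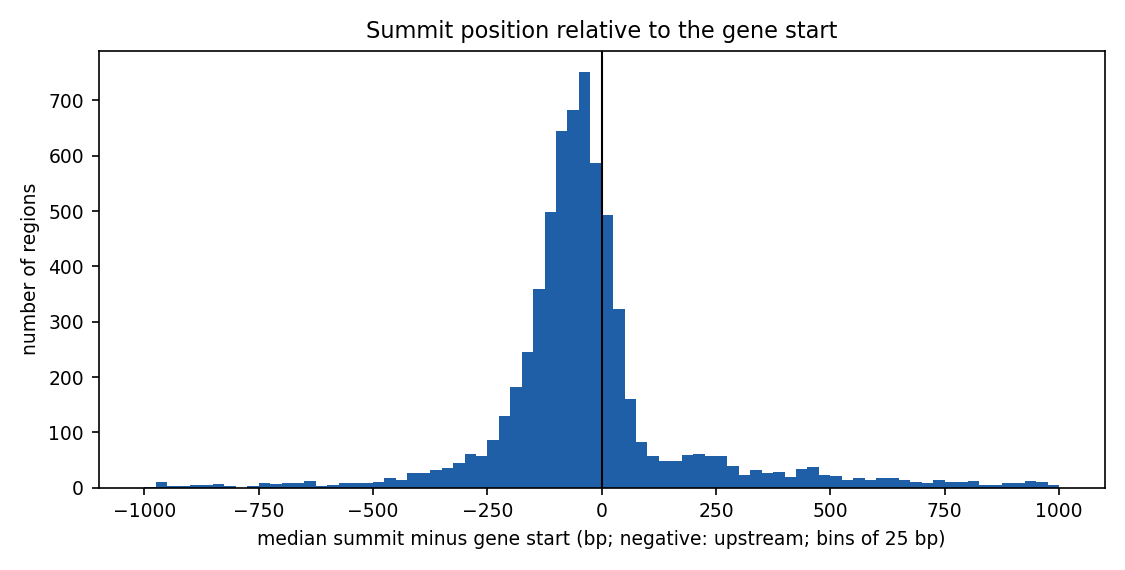
Number of always-open gene-end regions (y axis) by the position of their median summit relative to the nearest listed gene start (x axis, bp, bins of 25 bp), for the regions within 1 kb of it. The peak of the distribution stands just upstream of the start, and the median over all 6767 regions is -48.5 bp.

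Gene arrangement was mostly simple. An end of 9933 genes, 49.7% of the 19970, lay at an always-open gene-end region: 6674 regions had 1 gene, 1685 had 2 and 94 had 3 or more, at most 4. Of genes with a strand, 8063 (51.0%) had their start at such a region and 707 (4.47%) their 3′ end. Starts on both strands, as at bidirectional promoters, were found in 983 regions, of which 726 were head to head, with a median of 182.5 bp between the starts (quartiles 106 and 297). Those 983 regions had a median covered length of 973 bp, the 5929 with a single start 918 bp, and the 164 with only a 3′ end 743.5 bp. In each of the 22 libraries the median of the first was 1.04 to 1.11 times that of single starts and the median at 3′ ends was 0.727 to 0.910 times that of single starts, so that the order held in every library. A lncRNA end lay within the window at 1995 regions (23.6%), against 15.3% of always-open regions away from protein-coding gene ends. Genes at these regions were a median of 30.8 kb long, and the other protein-coding genes 17.7 kb.

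Genes of the basic cell machinery mostly had an end at such a region. The lists of genes were chosen with earlier results of these data known, so their shares describe and support no direction. Against 49.7% of all protein-coding genes, always-open regions stood at 79 of 83 cytosolic ribosomal protein genes (95.2%), 37 of 38 of the spliceosome core, 36 of 37 aminoacyl-tRNA synthetases, 37 of 40 of DNA replication, 36 of 39 of RNA polymerase II and its general factors, 40 of 45 of respiratory complex I, 67 of 77 mitochondrial ribosomal proteins and 39 of 46 proteasome subunits. The list of protein secretion and the unfolded protein response, on which antibody-secreting cells depend, had 39 of 40. Among the longest of these regions were those at RPL7 (1629 to 2527 bp, median 2141.5), the polymerase subunit POLR2H (1136 to 2541 bp, median 2121.5), the splicing factor U2AF2 (1359 to 1975 bp, median 1755.5) and the chaperone HSP90B1 (996 to 2003 bp, median 1622.5).

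Signalling and lineage lists were uneven. AP-1 and MAPK genes had 30 of 33 and NF-kappaB genes 18 of 21, with median covered lengths of 1145.25 and 1051 bp. The widest of them were at SPRY1 (1100 to 3303 bp, median 2634.5) and DUSP6 (672 to 3012 bp, median 2170), both feedback inhibitors of MAPK signalling. Plasma cell genes had 17 of 26 (65.4%), the widest at SDC1, the surface marker CD138, and ELL2, an elongation factor of antibody secretion (median 1715 bp). B cell identity genes that plasma cells silence had 7 of 22 (31.8%), with a median of 563 bp. BACH2, a repressor of plasma cell differentiation, had the widest of these, 645 to 2257 bp (median 1770). Interferon-stimulated genes had 15 of 32 and zinc finger genes 278 of 527 (52.8%), both near the share of all genes. Replication-dependent histone genes had 45 of 69 (65.2%), and several share a region, such as H2AC20, H2BC21 and H2AC21 (1514 to 3806 bp, median 2338).

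Genes of other cell types were mostly absent. Always-open regions stood at 2 of 24 T and NK cell markers, 3 of 18 myeloid markers, 1 of 17 erythroid and megakaryocyte markers, 4 of 20 stromal and endothelial markers, 3 of 22 liver genes, 4 of 20 neuron genes and 3 of 392 olfactory receptors. The exceptions among T and NK markers were CD8A (164 to 1303 bp, median 809.5) and CD28 (378 to 625 bp, median 509), the latter a costimulatory receptor that plasma cells also express. Of the olfactory receptor genes, 348 had no region at either end in any library.

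**Figure D2:**
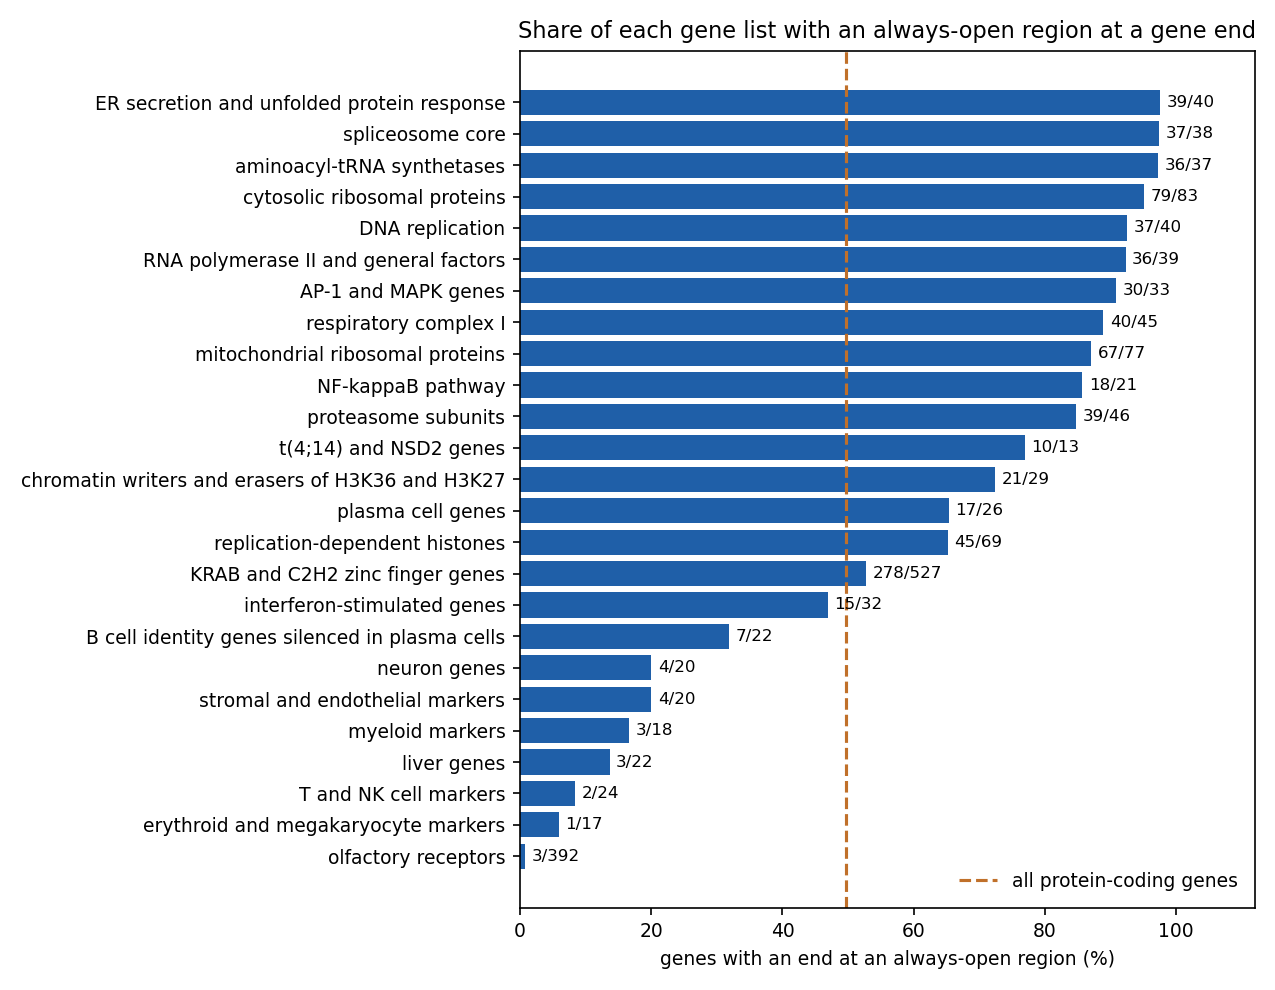
Share of the genes of each list with an end at an always-open gene-end region (x axis, percent; y axis, list; numbers at the bars, genes at such a region over genes in the annotation). The dashed line is the share of all protein-coding genes, 49.7%; the housekeeping and secretion lists exceed it and the lists of other cell types fall below it.

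The 10 genes chosen as landmarks of this disease and as references all had an end at such a region. At NSD2 the covered length was 374 to 1936 bp (median 923.5), and at FGFR3, the other gene activated by t(4;14), 252 to 1431 bp (median 725.5), where the region lies beyond the 3′ end of FGFR3 and beside LETM1. MYC had 946 to 1494 bp (median 1393) and the cyclin CCND2 559 to 1430 bp (median 1098). Of the plasma cell regulators, IRF4 had 225 to 1979 bp (median 1047), XBP1 250 to 978 bp (median 774.5) and PRDM1 429 to 1064 bp (median 764). SDC1 had 698 to 2956 bp (median 1822), and the references ACTB and GAPDH 1138 to 1881 bp (median 1484) and 727 to 3077 bp (median 2037). MYC and ACTB varied least and IRF4 most in relative length.

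The lists differed in length. They held 24979 to 52518 peaks covering 11.5 to 31.8 Mb, and always-open gene-end regions held 16.9% to 37.0% of the peaks and 32.3% to 47.9% of the covered bases. The lists give no read counts, so depth is unknown. The KMS11 day 0 replicate 2 list was the shortest and had the lowest median covered length, 592 bp. KMS34 in DMSO at day 10, replicate 1, had the highest, 1140 bp. Among gene-end regions, 624 were called in 21 libraries, with a median covered length of 637.75 bp, and the library without the peak was KMS11 day 0 replicate 2 in 399 of them, TKO replicate 2 in 82 and TKO replicate 1 in 50. At the edge of the window, 64 regions lay in the outermost 200 bp of the window and were included, and 56 always-open regions lay in the 200 bp beyond it and were not.

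**Figure D3:**
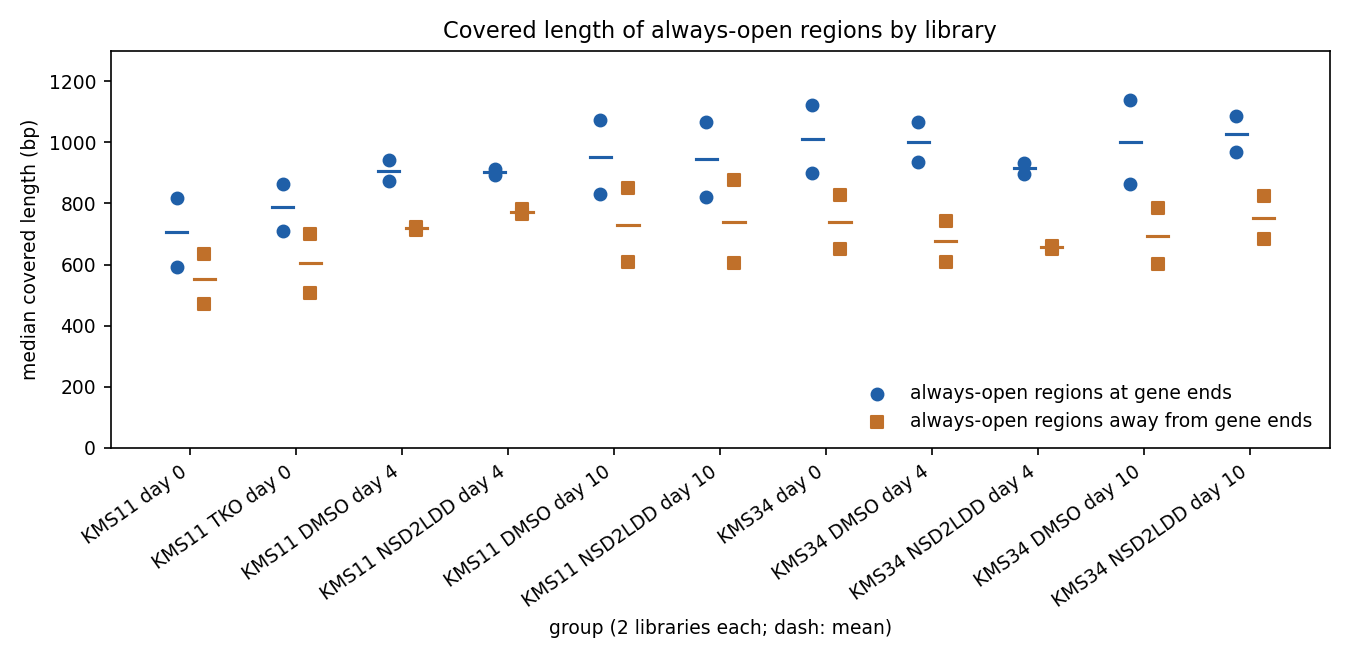
Median covered length (y axis, bp) of always-open regions at gene ends (circles) and away from them (squares) in each library, by group (x axis; 2 libraries a group, dash at their mean). Regions at gene ends are longer in all 22 libraries, at 592 to 1140 bp against 470 to 877 bp. Replicates lie far apart in some groups, as at 1140 and 864 bp in KMS34 in DMSO at day 10. They lie close in others, as at 894 and 914 bp in KMS11 in NSD2LDD at day 4.

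The first comparison asked whether degradation of NSD2 changed these regions as a whole. In KMS34 the median covered length at gene ends relative to that of always-open regions away from them was 1.38 ± 0.0442 (SD, n = 4) in NSD2LDD and 1.46 ± 0.0485 (n = 4) in DMSO, lower by 0.0845. All 4 NSD2LDD libraries, at 1.32 to 1.42, lay below the 4 DMSO libraries, at 1.43 to 1.54. The 2-sided exact permutation test gave p = 0.0286, the smallest 4 against 4 allows, and an adjusted p of 0.171 over the 12 tests of the family. The median covered length itself was 971 ± 81.8 bp in NSD2LDD and 1001.5 ± 125 bp in DMSO (n = 4 each, exact p = 0.743). In KMS11 the ratio was 1.23 ± 0.0898 against 1.29 ± 0.0698 (n = 4 each, exact p = 0.343), and the median covered length 924.25 ± 104 bp against 929.5 ± 107 bp (exact p = 0.914). Peaks per region and the distance of the strongest summit from its median position differed by less than the spread between libraries in both lines, with exact permutation p from 0.686 to 0.943.

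Region by region, few always-open gene-end regions passed a test after NSD2LDD. Covered length was tested with limma on log2(bp + 100), relative to each library's median over the always-open regions, with p adjusted over all 69191 regions called in at least 2 libraries. In KMS11 0 of 8453 passed an adjusted p of 0.05 and 177 an unadjusted 0.05, where 0.0694% of all regions passed (0.0318% lower and 0.0376% higher). In KMS34, 3 were lower and 0 higher (262 unadjusted), where 0.986% of all regions passed (0.344% lower and 0.642% higher). The test of the difference between the lines' responses called 0 (141 unadjusted), where 0.00578% of all regions passed (0.00289% lower and 0.00289% higher). Always-open regions away from gene ends had 0.0184% called in KMS11, 0.0737% in KMS34 and 0 for the difference. The shares over all regions are not on equal terms, since they include regions without a peak in some library.

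The 3 calls in KMS34 were small. The region at BIN3, a membrane-bending BAR domain protein, covered 382, 359, 350 and 367 bp in NSD2LDD and 567, 631, 632 and 509 bp in DMSO, and the groups did not overlap. Its log2 difference was -0.53 ± 0.12 (SE, limma adjusted p = 0.0447). At MEAF6, a subunit of histone acetyltransferase complexes, NSD2LDD libraries had 411, 556, 738 and 1014 bp and DMSO libraries 877, 996, 1222 and 962 bp, which overlapped (log2 difference -0.54 ± 0.12, limma adjusted p = 0.0497). At DUSP14, a dual-specificity phosphatase, they had 598, 762, 1236 and 1152 bp against 1269, 1282, 1325 and 1120 bp, which also overlapped (-0.40 ± 0.09, limma adjusted p = 0.0449). Each call was lost in 27 to 29 of 34 alternative settings, with adjusted p up to 0.797.

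The landmark genes gave no call after NSD2LDD in either line. At NSD2 itself the log2 difference was -0.12 ± 0.33 (SE) in KMS11 and -0.36 ± 0.33 in KMS34, at FGFR3 -0.20 ± 0.27 and 0.10 ± 0.27, and at CCND2 0.00 ± 0.08 and 0.10 ± 0.08. IRF4 had -0.06 ± 0.19 and -0.29 ± 0.19, XBP1 -0.09 ± 0.14 and -0.23 ± 0.14, and PRDM1 0.12 ± 0.13 and -0.20 ± 0.13. No limma adjusted p of the 10 landmark genes was under 0.764 in either line.

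KMS11 of genotype TKO was compared with KMS11 at day 0. With 2 libraries in each group no permutation test can go below p = 0.333, so per-library values are given alone: the median covered length was 864 and 710 bp in TKO and 819 and 592 bp at day 0, and the ratio to regions away from gene ends 1.24 and 1.40 against 1.29 and 1.26. limma called 98 regions lower and 71 higher in TKO, 2.00% of the 8453, where 4.07% of all regions passed (3.1% lower and 0.967% higher). Always-open regions away from gene ends had 2.39% called (100 lower and 30 higher). The share over all regions is not on equal terms, since it includes regions without a peak in some library. Covered lengths of the groups did not overlap in 150 of the 169 calls at gene ends (88.8%), against 98.8% of the calls over all regions. Of all regions, 4.02% were called without overlap. Called or not, 25.5% of the 8453 regions and 15.2% of all regions did not overlap. Among 2 against 2 libraries of the same kind, groups would separate fully in a share of 0.333, so separation alone shows no difference. Regions without a peak in these libraries tie, which lowers the share over all regions. Among the 169, the median fold was 1.73 on the log2(bp + 100) scale, with 35 over 2-fold. Without scaling the counts were 16 lower and 36 higher, and without KMS11 day 0 replicate 1 they were 122 and 360, so the balance of directions depends on the scaling and on that library.

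Regions that narrowed in TKO were led by HS3ST5, FOXP2, CACNA2D1, FADS1/FADS2 and SLC6A15. The region at CACNA2D1, a calcium channel subunit, covered 391 and 338 bp in TKO and 1423 and 962 bp at day 0 (log2 difference -1.59 ± 0.15, limma adjusted p = 8.8e-06). In the 8 other KMS11 libraries it covered 1402 to 1906 bp, so both TKO libraries lay below all other KMS11 libraries. At HS3ST5, a heparan sulfate sulfotransferase, TKO had 640 and 170 bp and day 0 had 1432 and 1081 bp (-1.73 ± 0.25, limma adjusted p = 0.00046). At FOXP2, a forkhead transcription factor, TKO had 990 and 266 bp and day 0 2059 and 1363 bp (-1.63 ± 0.25, limma adjusted p = 0.00094). SLC6A15, a neutral amino acid transporter, had 387 and 436 bp against 1672 and 786 bp (-1.43 ± 0.24, limma adjusted p = 0.0016), a call lost without scaling and with lists of equal length (adjusted p up to 0.282). FADS1/FADS2, a pair of fatty acid desaturases, had 651 and 188 bp against 1768 and 599 bp, which overlap (-1.44 ± 0.34, limma adjusted p = 0.024). That call was lost in 6 of 34 alternatives, among them without KMS11 day 0 replicate 1 (adjusted p = 0.213) and without TKO replicate 2 (0.280), with limma adjusted p up to 0.965.

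Regions called wider in TKO were led by ARID3A, DOK4, AGAP1, BACC1/RNASEK and MRPS2/PIERCE1. At ARID3A, a DNA-binding protein of B lineage cells, TKO had 957 and 1189 bp and day 0 had 237 and 172 bp (log2 difference 1.81 ± 0.17, limma adjusted p = 9.2e-06). The 18 libraries of the other groups had 916 to 1359 bp there, so the 2 day 0 libraries of KMS11 were the narrow ones. The same held at BACC1/RNASEK, with 990 and 1067 bp in TKO, 329 and 293 bp at day 0 (1.32 ± 0.15, limma adjusted p = 8.6e-05) and 721 to 1214 bp elsewhere. MRPS2/PIERCE1, where MRPS2 is a mitochondrial ribosomal protein, had 1173 and 969 bp against 546 and 198 bp (1.27 ± 0.23, limma adjusted p = 0.0035, and 0.051 without KMS11 day 0 replicate 2). AGAP1, a GTPase-activating protein of endosomal traffic, had 1347 and 1297 bp against 514 and 231 bp (1.52 ± 0.27, limma adjusted p = 0.0027, and 0.182 with lists of equal length). DOK4, an adaptor of receptor tyrosine kinases, had 1191 and 847 bp against 247 and 161 bp (1.74 ± 0.32, limma adjusted p = 0.0037, and 0.264 with the stronger peaks alone).

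The KMS11 libraries in DMSO were not part of that contrast and were placed beside it. Relative to each library's median, all 4 DMSO libraries lay above both day 0 libraries in 63 of the 71 regions called wider in TKO, and below both TKO libraries in 22. Of the 98 called narrower, all 4 lay above both TKO libraries in 85, and below both day 0 libraries in 42. The DMSO libraries were harvested at day 4 and day 10, so time and vehicle cannot be told apart here. The regions were picked for day 0 and TKO values far apart. Other libraries would tend to lie inside such extremes by that choice alone. These counts were chosen after the values were seen and carry no test.

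**Figure D4:**
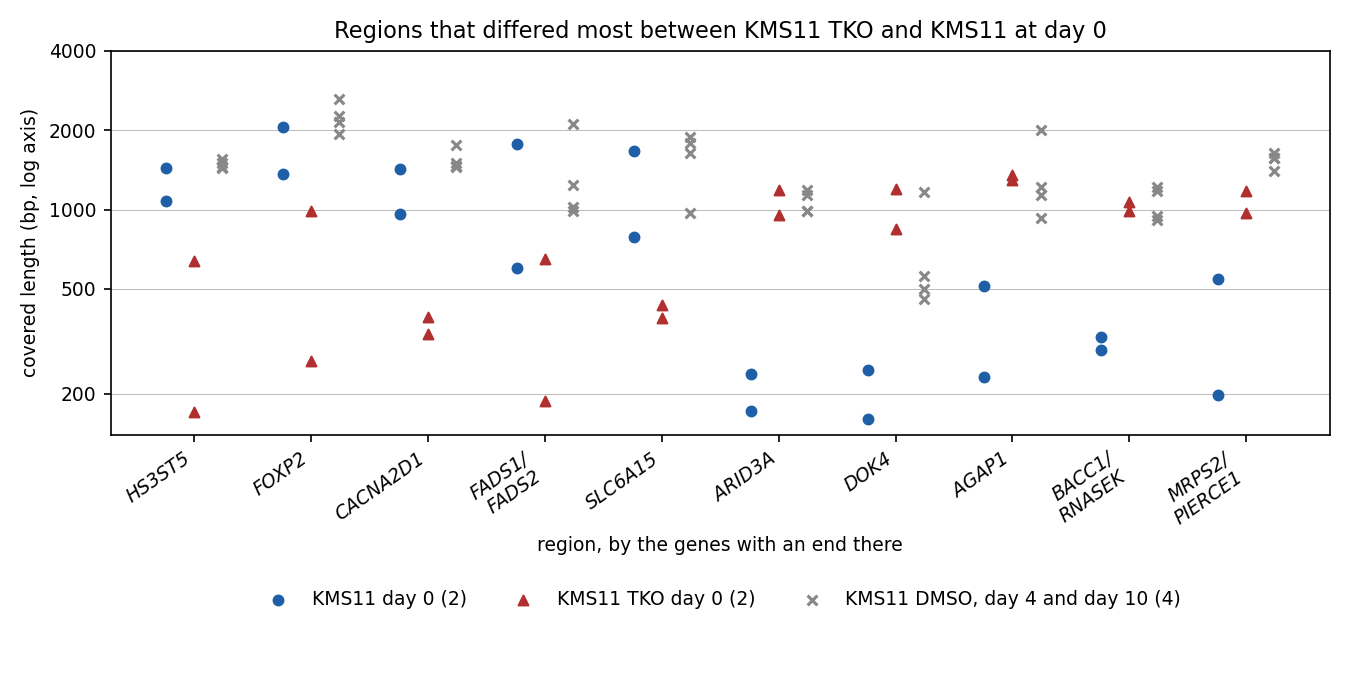
Covered length (y axis, bp, log axis) of the 10 regions with the largest called differences between KMS11 TKO and KMS11 at day 0 (x axis), in each library of day 0 (circles), TKO (triangles) and KMS11 in DMSO (crosses). At the 5 regions on the left the TKO libraries are low; at the 5 on the right the day 0 libraries are low and all 4 DMSO libraries lie above them.

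Landmark and list genes among the TKO calls were few, as were calls over all 8453 regions (2.00%), so single calls or none in a list say nothing particular about it. CCND2 had 828 and 559 bp in TKO and 1115 and 906 bp at day 0 (log2 difference -0.64 ± 0.11, limma adjusted p = 0.0017), and the cadherin CDH2, also on the list of t(4;14) and NSD2 genes, had 432 and 876 bp against 1707 and 928 bp (limma adjusted p = 0.041). These were 2 of the 9 regions of that list, and no region of it was higher. DUSP6 (1550 and 672 bp against 2095 and 1374 bp, limma adjusted p = 0.020) was the 1 call among 32 regions of AP-1 and MAPK genes. VCAN, a proteoglycan on the list of myeloid markers, had 1172 and 1101 bp against 1984 and 1577 bp (limma adjusted p = 0.00048). Higher calls included POLR2A, the largest polymerase II subunit (1071.5 bp against 493 bp on average, n = 2 each, limma adjusted p = 0.025). The 42 regions of the secretion list, the 20 of NF-kappaB genes, the 17 of plasma cell genes and the 42 of complex I had 0 calls. At NSD2 the log2 difference was -0.23 ± 0.47 (SE).

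KMS34 was compared with KMS11 over the day 0 and DMSO libraries, 6 of each. The ratio of the median covered length to that of regions away from gene ends was 1.43 ± 0.0624 (SD, n = 6) in KMS34 and 1.28 ± 0.0555 in KMS11 (exact permutation p = 0.00433, adjusted p = 0.0519 over the 12 tests), with KMS34 at 1.36 to 1.54 and KMS11 at 1.20 to 1.37. The median covered length was 1004.67 ± 120 bp against 854.83 ± 159 bp (exact p = 0.0887, adjusted 0.355). limma called 488 regions lower and 942 higher in KMS34, 16.9% of the 8453, where 34.2% of all regions passed (14.2% lower and 20% higher). Always-open regions away from gene ends had 24.5% called and gene-end regions that were not always open 43.3%. By definition, regions not always open lacked a peak in some library. Their share and that of all regions are therefore not on equal terms with the 16.9%. With no scaling the counts were 62 lower and 1579 higher, and with scaling to always-open regions away from gene ends, an alternative added after seeing the data, 182 and 1738. No scaling moved the median log2 difference of the 8453 regions from 0.03 to 0.20, so directions hold relative to the library's always-open regions. Most calls were small: the median fold was 1.32 on the log2(bp + 100) scale, and 39 exceeded 2-fold. The groups did not overlap in 270 of the 1430 (18.9%), against 38.1% of the calls over all regions, where 13.1% of all regions were called without overlap.

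Regions that were narrower in KMS34 were led by SEL1L, GON4L/SYT11, WHRN, CHRNA6 and CEP128. SEL1L is the adaptor of the HRD1 ubiquitin ligase in degradation of misfolded endoplasmic reticulum proteins. The region at its 3′ end (chr14:81470076-81472216) covered 747, 364, 190, 394, 244 and 291 bp in KMS34 and 1285, 1041, 1379, 1350, 1323 and 2141 bp in KMS11, with a log2 difference of -1.92 ± 0.16 (SE, limma adjusted p = 1.2e-07). The region at its start (chr14:81533250-81534221) was nearly level, at 723 bp against 737 bp on average (-0.21 ± 0.07, limma adjusted p = 0.044). GON4L/SYT11, a bidirectional promoter of a chromatin regulator and a synaptotagmin, had 370 to 844 bp against 1515 to 2178 bp (-1.78 ± 0.13, limma adjusted p = 3.9e-08). WHRN, whose promoter is printed above, had 415 to 705 bp against 1063 to 1791 bp (-1.44 ± 0.09, limma adjusted p = 8.1e-09). CHRNA6, a nicotinic receptor subunit, had 361 to 718 bp against 916 to 2007 bp (-1.37 ± 0.17, limma adjusted p = 9.1e-06), and CEP128, a centriole protein, 285 to 728 bp against 699 to 1205 bp, which overlap (-1.27 ± 0.25, limma adjusted p = 0.00090). CEP128 and SEL1L lie near each other on chromosome 14.

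Regions that were wider in KMS34 were led by LOC107987020, CPNE8, KLF15, FAM43A/LOC124909474 and OAS2. LOC107987020, a gene model known by number, had 3150 to 3789 bp in KMS34 and 452 to 695 bp in KMS11 (log2 difference 2.19 ± 0.07, limma adjusted p = 1.0e-10). CPNE8, a calcium-dependent membrane-binding copine, had 1771 to 2097 bp against 469 to 552 bp (1.62 ± 0.10, limma adjusted p = 6.9e-09). KLF15 had 1203 to 2162 bp against 178 to 599 bp (1.61 ± 0.10, limma adjusted p = 1.4e-08). FAM43A/LOC124909474 had 1806 to 2825 bp against 376 to 902 bp (1.58 ± 0.10, limma adjusted p = 1.0e-08). OAS2, an interferon-induced oligoadenylate synthetase, had 976 to 1652 bp against 225 to 485 bp (1.503 ± 0.11, limma adjusted p = 5.8e-08). In none of the 5 did the lines overlap. None of these 10 calls was lost in any of 33 alternatives. Copy number was not measured in these lists, and its part in these differences was not tested.

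The NSD2LDD libraries were in neither mean of this comparison. They come from the same lines and were in the same fit, so they are no separate check. At the regions given here, a part of those named, they had the same order of the lines. LOC107987020 had 3043 to 3759 bp in the 4 KMS34 libraries in NSD2LDD and 528 to 952 bp in the 4 of KMS11. CPNE8 had 2021 to 2092 bp against 498 to 692 bp, KLF15 1074 to 1826 bp against 354 to 601 bp, and OAS2 1405 to 1870 bp against 453 to 789 bp. At GON4L/SYT11 they had 368 to 771 bp against 1924 to 2111 bp, and at SEL1L 260 to 591 bp against 1068 to 1495 bp.

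**Figure D5:**
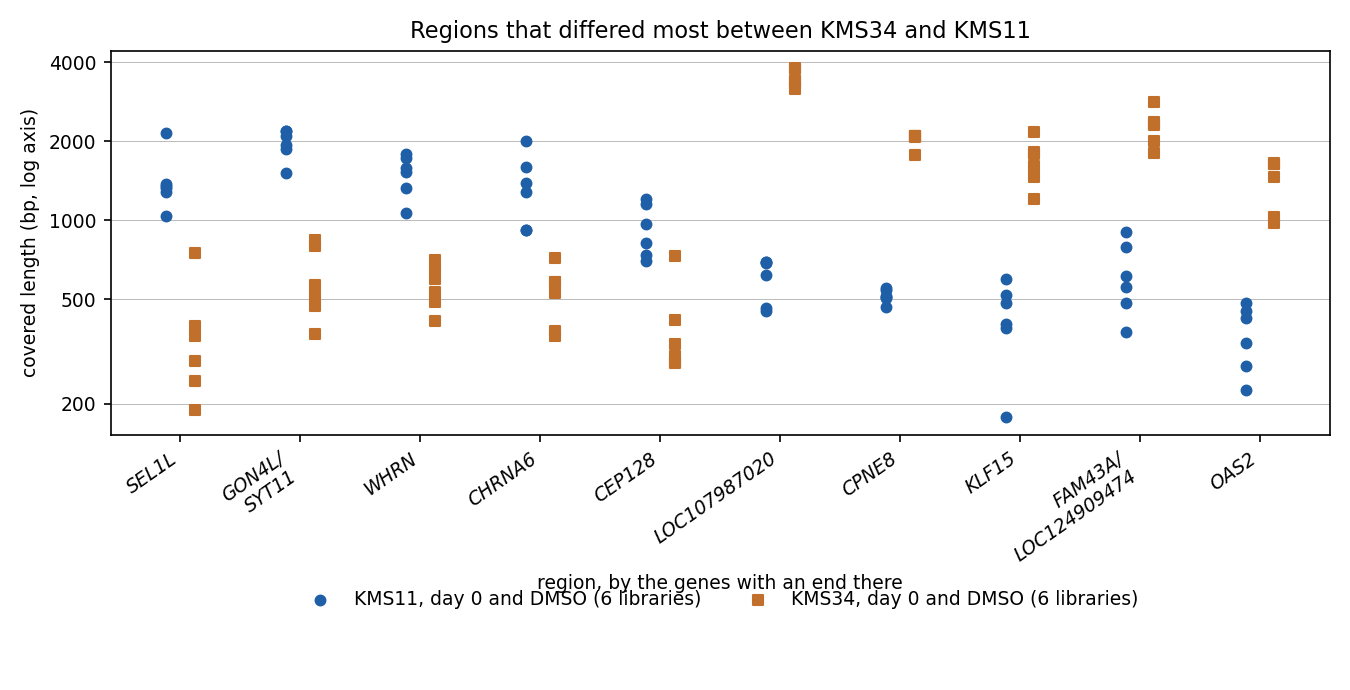
Covered length (y axis, bp, log axis) of the 10 regions with the largest called differences between the lines (x axis), in the 6 day 0 and DMSO libraries of KMS11 (circles) and of KMS34 (squares). The first 5 are narrower and the last 5 wider in KMS34; only at CEP128 do the lines overlap.

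Several lists had calls between the lines in a share near the 16.9% of all 8453 regions. The share was 17.9% at cytosolic ribosomal protein genes, 12.5% at proteasome genes, 17.5% at spliceosome genes and 18.4% at aminoacyl-tRNA synthetase genes. It was 21.4% in the secretion list and 14.3% at zinc finger genes. Higher shares were found at plasma cell genes (41.2% of 17 regions), B cell identity genes (42.9% of 7) and neuron genes (40% of 5). Genes of H3K36 and H3K27 writers and erasers had 28.6% of 21 regions. Lower shares were found at NF-kappaB genes (10% of 20) and complex I genes (2.38% of 42). Calls went both ways. Of 84 regions at cytosolic ribosomal protein genes 9 were lower and 6 higher in KMS34, of 40 at proteasome genes 5 and 0, of 40 at spliceosome genes 6 and 1, and of 38 at aminoacyl-tRNA synthetase genes 1 and 6, with list medians between -0.07 and 0.05 on the log2 scale against 0.03 over all 8453 regions. The 273 regions at zinc finger genes had 3 lower and 36 higher, with a median of 0.06. In the secretion list 5 of 42 were lower and 4 higher: HERPUD1, a component of the same degradation pathway as SEL1L, was higher at 1437.83 bp against 989.5 bp (0.39 on the log2 scale, limma adjusted p = 3.1e-05) and XBP1 was lower in scaled length at 692 bp against 772 bp (-0.35 ± 0.12, limma adjusted p = 0.030). Of 17 regions at plasma cell genes 3 were lower and 4 higher. Higher were SDC1 (2305 bp against 1559.5 bp, limma adjusted p = 0.027), SPCS1, the coactivator gene POU2AF1 (1157 bp against 776 bp, limma adjusted p = 0.0015) and BHLHA15, a regulator of secretory cells (926 bp against 515 bp, limma adjusted p = 0.0015). Of 7 regions at B cell identity genes 1 was lower, EBF1 at 401 bp against 489.5 bp (limma adjusted p = 0.026), and 2 were higher, BACH2 at 2060 bp against 1442 bp (limma adjusted p = 0.00026) and SPIB at 1010.5 bp against 581.5 bp (limma adjusted p = 0.014). Of 32 regions at AP-1 and MAPK genes 1 was lower and 3 were higher, among them DUSP6 at 2654 bp against 1785 bp (limma adjusted p = 0.011). At NSD2 the log2 difference was 0.37 ± 0.27 and at FGFR3 0.34 ± 0.22, without a call. The reference gene GAPDH was called higher too, at 0.35 ± 0.12 (limma adjusted p = 0.034).

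Where the strongest summit stood was tested with limma over the 13884 always-open regions, with positions along the gene where the strand is known. Between the lines 23 regions of the 8453 moved upstream or to lower coordinates and 41 the other way in KMS34, where 1.04% of all tested regions passed. At SLC6A15 the summit stood at -1354 to -1284 bp in KMS34 and 0 to 142 bp in KMS11, relative to the 22-library median and along the chromosome (difference -1375.5 ± 25.4 bp, SE, limma adjusted p = 7.2e-13). The groups are far apart and tight, in a region that is a single peak in 20 of 22 libraries. AGPAT3, a lysophospholipid acyltransferase, moved upstream, with -1373 to -841 bp against 287 to 303 bp (-1409.67 ± 101 bp, limma adjusted p = 2.7e-06). NUP210, a nuclear pore membrane glycoprotein, moved downstream, with 365.5 to 1029.5 bp against -482.5 to -428.5 bp (1235.67 ± 129 bp, limma adjusted p = 0.00018). VAV3, a guanine nucleotide exchange factor, and SPRED2, a MAPK inhibitor, moved downstream by 1346 ± 175 and 1531 ± 204 bp (limma adjusted p = 0.0013 and 0.0015). At VAV3 the lines did not overlap, at -514 to 831 bp in KMS34 and -1366 to -515 bp in KMS11. The lines overlapped at SPRED2. Both calls were lost with the summit of the widest peak in place of the strongest summit. The shifts were then 1054 bp at VAV3 and 61 bp at SPRED2 (limma adjusted p = 0.11 and 0.97). Mean peaks per library were 1.36 at AGPAT3, 1.27 at NUP210, 1.73 at VAV3 and 2.00 at SPRED2, so in part of the libraries the strongest summit was chosen among several.

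Summit calls in the other comparisons were few. NSD2LDD moved 1 region in KMS11 (0.0144% of all tested passed), that at TAPBP/ZBTB22, where TAPBP is the peptide-loading chaperone tapasin. The summit there stood at -1140 to 42 bp in NSD2LDD and -63 to 1 bp in DMSO, so the groups overlap. The test of the difference between the lines' responses called the same region and no other (0.0216% of all tested passed). In KMS34 NSD2LDD moved 3 regions (0.036% of all tested passed), at FNDC3B, ACTB and HMGN2/DHDDS, by -504 ± 59.3, -427 ± 42.8 and -393.25 ± 56.7 bp. At ACTB the summit stood at -99.5 to 35.5 bp in NSD2LDD and 71.5 to 750.5 bp in DMSO, without overlap. At FNDC3B the groups overlapped, at -71 to -56 bp in NSD2LDD and -61 to 947 bp in DMSO. They also overlapped at HMGN2/DHDDS, at -755 to 52 bp and 0 to 278 bp. Both of these calls were lost with the widest peak's summit. That at HMGN2/DHDDS was also lost with the replicate block (limma adjusted p = 0.071). TKO moved 10 regions (0.144% of all tested passed), among them SZRD1 by 635 ± 67.2 bp, FUT4 by -342 ± 52.8 bp and PRDX4, an endoplasmic reticulum peroxiredoxin, by 398.5 ± 49.5 bp. These counts rest on single libraries. Without KMS11 in DMSO at day 10, replicate 1, the calls after NSD2LDD in KMS11 numbered 36 and those of the difference between the lines 19. Without KMS34 in DMSO at day 4, replicate 2, the calls in KMS34 numbered 28, and without KMS11 day 0 replicate 1 those of TKO numbered 74. Between the lines they ranged from 38, without KMS11 in DMSO at day 4, replicate 2, to 103, without KMS34 day 0 replicate 2.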

How the data were processed

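ATAC-seq peak lists of 22 libraries were analysed. The submitters' processing notes name fastp, BWA, SAMtools, Picard, MACS3, deepTools and the build hg38, without versions or settings. The deposited lists give each peak's position, its summit and, as the authors' caller wrote it, a -log10 q, which was used to rank summits and filter peaks. Its lowest value was 2.00. The other value columns stayed unused. Without read counts, depth is unknown and a covered length also depends on how much each library's list called.

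Lists were merged into union regions (Python 3.11.15, checked against bedtools 2.31.1), and gene ends came from the RefSeq table of GRCh38.p14. A gene end here is either outer end of a gene. Covered length was tested with limma 3.58.1 (R 4.3.3, trend and robust, 11 group means, all 22 libraries) on log2(bp + 100) minus the library's median over always-open regions, for regions called in at least 2 libraries. Summit positions were tested with robust limma over always-open regions. Both used the Benjamini-Hochberg adjustment at 0.05, and the covered-length fit was tested on simulated data. Medians per library were compared with 2-sided exact permutation tests. Since each peak has 1 summit, 12 such tests were run in place of the 15 planned.

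The members and gene lists were chosen with earlier results of these data known. Regions named are the 5 widest and the 5 narrowest, the 5 largest called differences each way in each comparison, the 5 with the least variable summit, 10 landmark genes and up to 4 of the widest in each list; 1 region under this rule is not reported here. Other list genes named, and the promoters of WHRN, KLF15 and OR10A2, were chosen after their values were seen. Alternatives covered scaling, the added length, peak strength, list length, the call filter, the fit, a replicate block and each library left out.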

Additional observations from a re-analysis of the deposited data

Results flagged for a closer look

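In 24 combinations of a group of samples and a per-library measure, each extreme library's gap to its neighbour was set against Dixon's 95% critical value, which chance passes in about 1 of 20 groups. Among the 4 KMS11 libraries in DMSO, day 10 replicate 2 had a strongest summit a median of 49 bp from the region's median position, where the lowest of the group had 25 bp. Among the 6 day 0 and DMSO libraries of KMS34, day 0 replicate 1 had 46 bp, where the lowest had 27.5 bp. Among the 4 KMS11 libraries in NSD2LDD, day 10 replicate 1 had 1.10 peaks per always-open gene-end region, where the lowest had 1.04.

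The summit at TAPBP/ZBTB22 responded differently to NSD2LDD in the lines, by 530.75 ± 43.4 bp (SE, limma adjusted p = 0.00030). It stood at -1140 to 42 bp in the 4 NSD2LDD libraries of KMS11 and at -28 to 81 bp in those of KMS34. With the widest peak's summit the difference was 219.25 bp and the call was lost. With lists of equal length the region was no longer called in every library and was not tested.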

How the results depend on the processing

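The number of members was 8453 to 8852 with single libraries left out. After NSD2LDD in KMS34 the 3 covered-length calls became 6 with 30 bp added, 41 with lists of equal length, and 0 with 300 bp added, regions called in at least 1 or at least 11 libraries, the replicate block, limma without trend and robust, 1 line alone, or scaling to always-open regions away from gene ends (added after seeing the data). They ranged from 0 to 9 with libraries left out. With lists of equal length KMS11 had 2 calls and the difference between the lines 18, and with libraries left out 0 to 1 and 0. For TKO, 169 calls became 52 with no scaling, 48 without trend and robust and 93 with 1 line alone, and 125 to 482 with libraries left out. Between the lines 1430 became 784 without trend and robust, and 1052 to 1740. The cause was not tested. Same-numbered libraries of 55 pairs of groups had correlations of -0.277 to 0.416 (11 above 0.1), short of a pairing in every pair. The highest was between KMS11 in DMSO and in NSD2LDD at day 10, where same-numbered libraries had median covered lengths of 830 and 821 bp and of 1074 and 1068 bp, so a link there may exist and was not tested. With the replicate block the covered-length calls were 0, 0, 0, 162 and 1392, and the summit calls 1, 2, 1, 9 and 58. Summit calls with libraries left out were 1 to 36 and 2 to 28 after NSD2LDD in KMS11 and KMS34, 1 to 19 for their difference, 9 to 74 for TKO and 38 to 103 between the lines. The widest peak's summit gave 3 calls in KMS11 and 3 for the difference. Lists of equal length, where only regions still called in every library were tested, gave 0, 0 and, between the lines, 37.

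Per-library differences changed sign in part. With lists of equal length the difference in peaks per region after NSD2LDD was 0.000138 in KMS11 and -0.000584 in KMS34. With libraries left out it was -0.0136 to 0.0104 and -0.0018 to 0.0265, and -0.0235 to -0.00555 between the lines. The median covered length then differed by -53.2 to 42.9 bp, -76.3 to 15.7 bp and 97.3 to 194 bp, the ratio by -0.103 to -0.034, -0.0964 to -0.0608 and 0.127 to 0.164, and the summit distance by -5.25 to 5 bp, -3.75 to 1.25 bp and -1.8 to 4.23 bp, in the same order. With -log10 q of 5 or more the ratio differed between the lines by 0.150 (exact permutation p = 0.0022). Of the named covered-length calls, 3 of 3 in KMS34 after NSD2LDD, 5 of 10 for TKO and 0 of 10 between the lines were lost under any alternative. Of the named summit calls, 1 of 1 in KMS11, 2 of 3 in KMS34, 1 of 1 for the difference, 6 of 9 for TKO and 5 of 10 between the lines were lost.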
